A study of Mus musculus with 24 samples.

Results

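The genes described here encode the machinery of DNA replication and cell division, and their RNA was measured in hepatocyte preparations of aged male mice. They are 39 named genes, taken as a list by their symbols from the 55421 genes of the deposited tables, and they fall into 17 replication genes and 22 mitosis genes. RNA-seq was performed on isolated hepatocytes of 24 C57BL/6J mice in 3 groups, to ask how a high fat diet (HFD) late in life acts on the transcriptome and if that response is altered by eRapa, rapamycin encapsulated in the food, which inhibits the mTOR kinase. All mice received their food additive from 4 months of age, and the diet was switched, or not, at 18 months for 9 weeks. The ND + veh group (n = 8) ate a normal diet with the empty capsule material eudragit as vehicle. The HFD + veh group (n = 7) received the same vehicle and was moved to food in which fat gave 60% of the calories, and the HFD + eRapa group (n = 9) was moved to that diet while receiving rapamycin at 42 ppm. There was no normal diet group with rapamycin, so an effect of the drug was measured on the high fat diet only. The cells came from collagenase perfusion of the liver, low speed spins and a Percoll gradient, which enriches hepatocytes but does not sort them.

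Most hepatocytes of an adult liver are out of the cell cycle, and they re-enter it after injury or loss of tissue. Before S phase, ORC, Cdc6 and Cdt1 load the MCM helicase onto origins, E2F transcription factors raise the genes of replication, and cyclin E with its kinase starts DNA synthesis. A later wave of genes, bound by the DREAM and MuvB-Foxm1 complexes, encodes cyclin A, cyclin B, Cdk1 and the machinery of the spindle. Hepatocytes are known for entering S phase without completing division, which makes many of them polyploid, so replication genes and mitosis genes were kept apart. Because the samples are bulk RNA, more cells of a cycling type and more RNA per cell cannot be told apart.

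Promoters are shown for 1 gene of each set, since the sets are known for different promoter elements. RefSeq promoters (GRCm38.p6) were found for 14 of 17 replication genes and 17 of 22 mitosis genes, and the 250 bases before the start were searched on both strands. The E2F motif was searched as TTTCCCGC, TTTCGCGC, TTTGCCGC and TTTGGCGC, the cell cycle homology region (CHR) as TTTGAA and TTCGAA, and the CCAAT box as CCAAT. A gene with more than 1 listed promoter counted if any of them held the motif. Mcm6 was chosen for the most E2F matches of the replication genes and Top2a for the most CHR matches of the mitosis genes. The promoters shown are therefore not typical of their sets. The 250 bases before Mcm6, a helicase subunit, lie at chr1:128359706-128359955 on the minus strand, with 3 E2F matches, of which the first pair overlaps, and 2 CCAAT boxes in capitals. The 250 bases before Top2a, the topoisomerase that untangles chromosomes, lie at chr11:99024190-99024439 on the minus strand, with 4 CHR matches and 6 CCAAT boxes in capitals.
Mcm6: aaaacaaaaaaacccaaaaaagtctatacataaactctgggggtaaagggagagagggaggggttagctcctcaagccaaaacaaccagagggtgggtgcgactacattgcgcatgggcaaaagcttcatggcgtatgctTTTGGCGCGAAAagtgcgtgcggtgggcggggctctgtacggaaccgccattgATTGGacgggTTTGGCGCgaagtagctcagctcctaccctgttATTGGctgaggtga
Top2a: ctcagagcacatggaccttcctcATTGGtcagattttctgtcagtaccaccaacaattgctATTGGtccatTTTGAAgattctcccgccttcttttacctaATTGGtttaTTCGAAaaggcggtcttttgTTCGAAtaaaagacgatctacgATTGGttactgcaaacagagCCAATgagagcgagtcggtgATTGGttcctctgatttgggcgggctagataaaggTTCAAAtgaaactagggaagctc
An E2F match stood in 4 of 14 replication promoters (28.6%), in 1 of 17 mitosis promoters (5.88%) and in 2.16% of the 27025 symbols with a promoter. A CHR match stood in 3 of 14 (21.4%) and 8 of 17 (47.1%), against 19.6% of all. CCAAT boxes stood in 9 of 14 (64.3%) and 15 of 17 (88.2%), against 37.5% of all. These are matches of letters in a window and were not tested as binding sites.

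Total counts per library were 17.7 to 25.9 M, which limits precision by counting error for the rare transcripts below. HFD + veh replicate 6 had the lowest mean correlation with its own group (0.8827), followed by replicates 2 and 1 of that group (0.9022 and 0.9045). Hepatocyte markers were abundant in every library, with Alb at 31400 to 128000 CPM (counts scaled to the depth of each library), and the calls are given with and without replicate 6. Of all genes, 13847 passed the filter on low counts and were tested, and the 39 genes were all among them. A gene is called where its adjusted p (edgeR quasi-likelihood test, Benjamini-Hochberg over the 13847 genes) is under 0.05.

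Replication genes were measurable in nearly all animals, and most mitosis genes were at the edge of detection in some. At least 10 counts in every library were reached by 14 of 17 replication genes but 3 of 22 mitosis genes, which were Mki67, Aurka and Kif11. The gene of the spindle checkpoint kinase Bub1 had 0 counts in ND + veh replicates 1, 2 and 5, and Cenpe, a kinetochore motor, had 0 in replicate 1. Cdc6 had 0 in ND + veh replicate 5. Counts of 0 at these depths allow up to 0.17, 0.114 and 0.163 CPM in replicates 1, 2 and 5, with counting error only. Per length of transcript, the highest level was that of Pcna, the sliding clamp of the polymerases, at a median of 18.7 FPKM over 24 animals. Mcm7 followed at 6.69 FPKM and Tyms, thymidylate synthase, at 6.39 FPKM. Of the mitosis genes Cdk1, the mitotic kinase, was the highest at a median of 4.14 FPKM, and 11 of the 22 had a median under 1 FPKM. Cdt1 and Gins2 were listed at 0 FPKM in every library although their counts ran from 26 to 150 and from 2 to 90, so these 0 values can be failed estimates and no FPKM level is given for them. For Ccna2, Ccne2, Cdc20, Mcm7, Prc1, Gins2, Cdt1, Kif20a, Nusap1 and Foxm1 the annotation has an overlapping coding gene, and as no strand setting of the counting was stated their counts are uncertain to that extent. The processed pseudogene Ccnb2-ps took a mean count of 18.9 and Pcna-ps2 of 9.42, so reads may be split for these genes.

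Mitosis genes differed more between animals of the same group than replication genes did. In the ND + veh group the median SD of log2 CPM was 2.07 over the 22 mitosis genes, 0.588 over the 17 replication genes and 0.321 over all genes tested. In HFD + veh these medians were 1.54, 0.711 and 0.451, and in HFD + eRapa 1.14, 0.307 and 0.313. From the lowest to the highest of the 24 animals Top2a ranged 324.8-fold and Mki67 171.4-fold in CPM, against 2.47-fold for Mcm7, 5.998-fold for Pcna and 4.04-fold for Aurka. Some replication genes ranged more widely, such as Mcm6 at 30.1-fold, Mcm5 at 31.7-fold and Gins2 at 39.3-fold. The ratio was over 50 in 20 of the 22 mitosis genes and 1 of the 17 replication genes, counting those with 0 in some library. The mitosis genes summed to 9.11, 48.6 and 282 CPM (lowest, median, highest) in ND + veh, to 22.96, 155 and 516 in HFD + veh and to 18.4, 80.6 and 146 in HFD + eRapa. The groups overlapped throughout, and each diet held animals with low and with high sums. On the normal diet replicates 4 and 8 stood at 282 and 246 CPM, and HFD + veh replicates 6 and 4 were the only animals of that group above the lower of these values. Summed replication genes were 83.4, 105 and 202 CPM in ND + veh, 110, 169 and 429 in HFD + veh and 98.6, 119 and 142 in HFD + eRapa. HFD + veh replicate 6 had the highest value of all 24 animals in 28 of the 39 genes, and its sums of 429 and 516 CPM were followed within the group by 213 and 257 CPM in replicate 4.

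**Figure D1:**
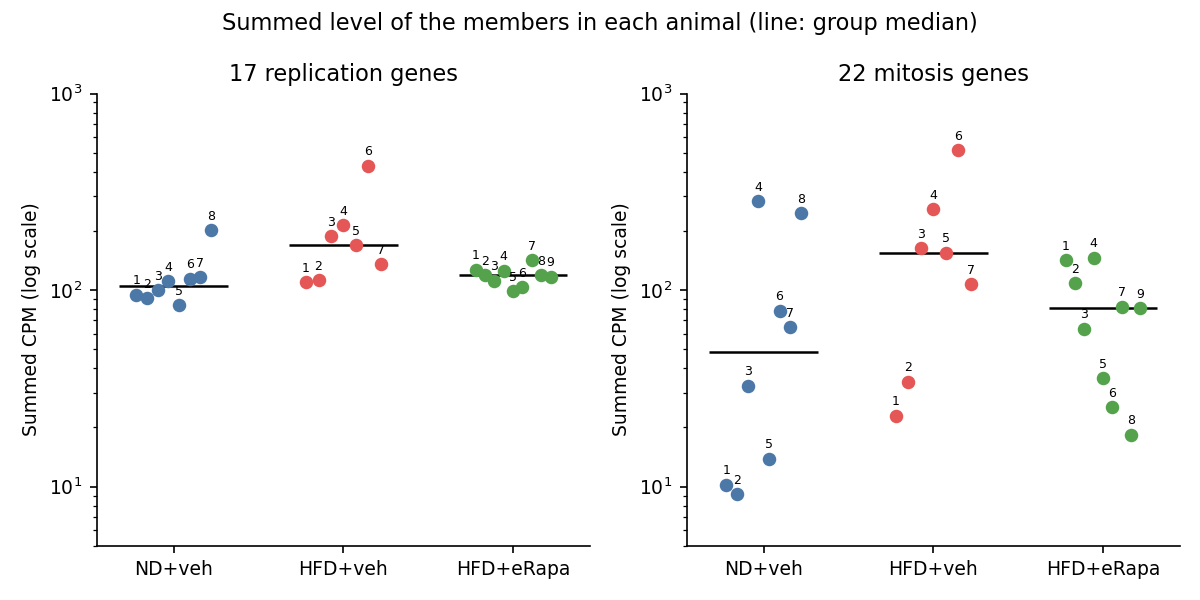
Summed CPM (log scale) of the 17 replication genes (left) and the 22 mitosis genes (right), with a point for each animal numbered by replicate and a line at the group median. Mitosis sums run from 9.11 to 282 in ND + veh and from 22.96 to 516 in HFD + veh, while replication sums of the HFD + eRapa animals stay between 98.6 and 142.

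The balance between the sets also differed between animals. Mitosis genes summed to 2.55 times the replication genes in ND + veh replicate 4 and to 0.1 times in ND + veh replicate 2. In replicate 4 the mitosis genes were high while its replication sum of 110.9 CPM was near the group median of 105 CPM. That animal had the highest value of the 24 in 5 genes, all of the mitosis set. They were Cdc20, which activates the anaphase promoting complex, Plk1 and Aurka, both mitotic kinases, Kif20a, a kinesin of cytokinesis, and Ccnb2. E2f2, an activating E2F, had its highest value in ND + veh replicate 2, where the mitosis sum was the lowest.

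**Figure D2:**
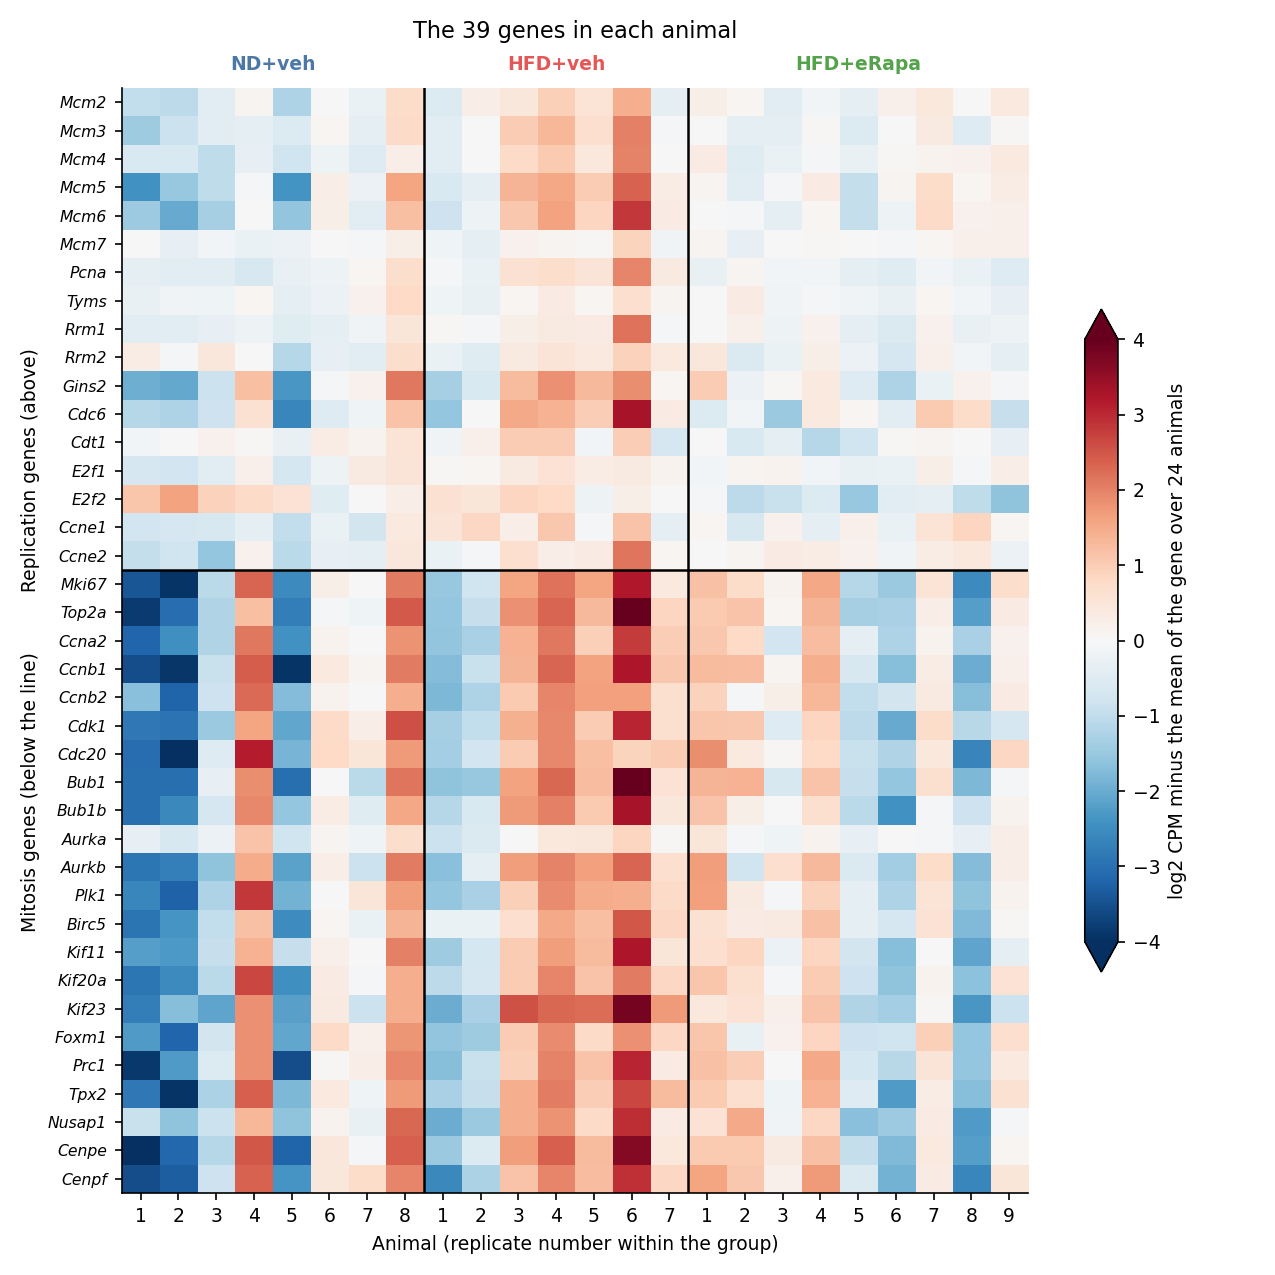
Each of the 39 genes (rows) in each of the 24 animals (columns, by group and replicate), as log2 CPM minus the mean of that gene over all animals, with the scale ending at 4. Mitosis genes span wider ranges between animals of 1 group than replication genes, and HFD + veh replicate 6 is highest in 28 of the 39 genes.

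Of 17 replication genes 9 rose with the high fat diet and 8 were not called, and without HFD + veh replicate 6 the number called was 2. In HFD + veh against ND + veh 9 of 17 were called and all 9 were higher, where 16% of all genes tested were called higher, 9.86% lower and 25.9% in either direction. The median log2 fold change over the 17 genes was 0.87, against 0.047 over all genes. None of the 39 had groups that did not overlap, which 2.44% of all genes had (1.21% higher). The helicase accounts for 4 of the 9. Mcm6 (chr1:128331590-128359664) was at 1.79, 4.24 and 17.6 CPM (lowest, median, highest) in ND + veh and at 4.23, 13.75 and 53.9 CPM in HFD + veh, and it rose by 1.55 ± 0.485 (log2, SE, adjusted p = 0.0237). Mcm4 (chr16:15623897-15637400) was at 3.03, 4.19 and 7.49 CPM in ND + veh and at 4.59, 8.47 and 25.1 CPM in HFD + veh. It rose by 1.2 ± 0.273 (adjusted p = 0.00414), and 4 of the 7 HFD + veh animals were above every ND + veh animal. Mcm2 (chr6:88883474-88898780), at a median of 4.15 CPM in ND + veh and 7.40 CPM in HFD + veh, rose by 0.81 ± 0.287 (adjusted p = 0.0414), and Mcm3 rose by 1.17 ± 0.317 (adjusted p = 0.0116). Mcm5 had a log2 fold change of 1.30 ± 0.508 that missed the threshold (adjusted p = 0.0597), and Mcm7, the most abundant subunit per length, one of 0.22 ± 0.140 (adjusted p = 0.253).

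The origin loader Cdc6 (chr11:98907801-98923940) was at 0, 0.274 and 1.19 CPM in ND + veh and at 0.104, 1.065 and 5.65 CPM in HFD + veh. It had the largest rise of the called genes, 1.90 ± 0.653 (adjusted p = 0.0351), at counts that were under 10 in 12 of 24 libraries. Both genes of cyclin E, which triggers entry into S phase, rose. Ccne1 (chr7:38097984-38107534) went from 0.380, 0.504 and 1.14 CPM to 0.627, 1.25 and 1.98 CPM, a log2 fold change of 1.13 ± 0.296 (adjusted p = 0.00971), and Ccne2 rose by 1.16 ± 0.334 (adjusted p = 0.0162). Pcna (chr2:132249162-132253314) was at 19.6, 23.9 and 49.2 CPM in ND + veh and at 25.5, 43.7 and 117.6 CPM in HFD + veh. Its log2 fold change was 0.87 ± 0.246 (adjusted p = 0.0148). Rrm1, the large subunit of ribonucleotide reductase, rose by 0.88 ± 0.268 (adjusted p = 0.0211), whereas its partner Rrm2 had 0.30 ± 0.237 (adjusted p = 0.363) and Tyms 0.13 ± 0.168 (adjusted p = 0.605). The other genes without a call were Gins2 at 0.74, E2f1 at 0.42, Cdt1, the second origin loader, at 0.36 and E2f2 at -0.29.

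The number of calls depended on HFD + veh replicate 6 and on the groups in the fit. With only the 2 groups compared and all their animals kept, 3 of the 17 were called, where 1433 of 13423 genes were called higher. Without replicate 6 in the fit of 3 groups 2 of the 17 replication genes were called, where 7.1% of the 13910 genes tested were called higher. They were Mcm4 at a log2 fold change of 0.79 (adjusted p = 0.0154) and Ccne1 at 0.96 (adjusted p = 0.0326). These are also the genes called in each of the 24 fits that left out 1 library. Without replicate 6 Mcm6 was at 0.93 (adjusted p = 0.137), Pcna at 0.46 (adjusted p = 0.0801) and Rrm1 at 0.32 (adjusted p = 0.14). Mcm3 was at 0.80 (adjusted p = 0.058), Mcm2 at 0.54 (adjusted p = 0.177), Cdc6 at 1.03 (adjusted p = 0.238) and Ccne2 at 0.62 (adjusted p = 0.103). Mcm2 and Cdc6 were each called in 15 of the 24 fits, so their calls also depended on other animals. Leaving out ND + veh replicate 4 as well gave 2 calls again, where 1179 of 13791 genes were called higher.

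**Figure D3:**
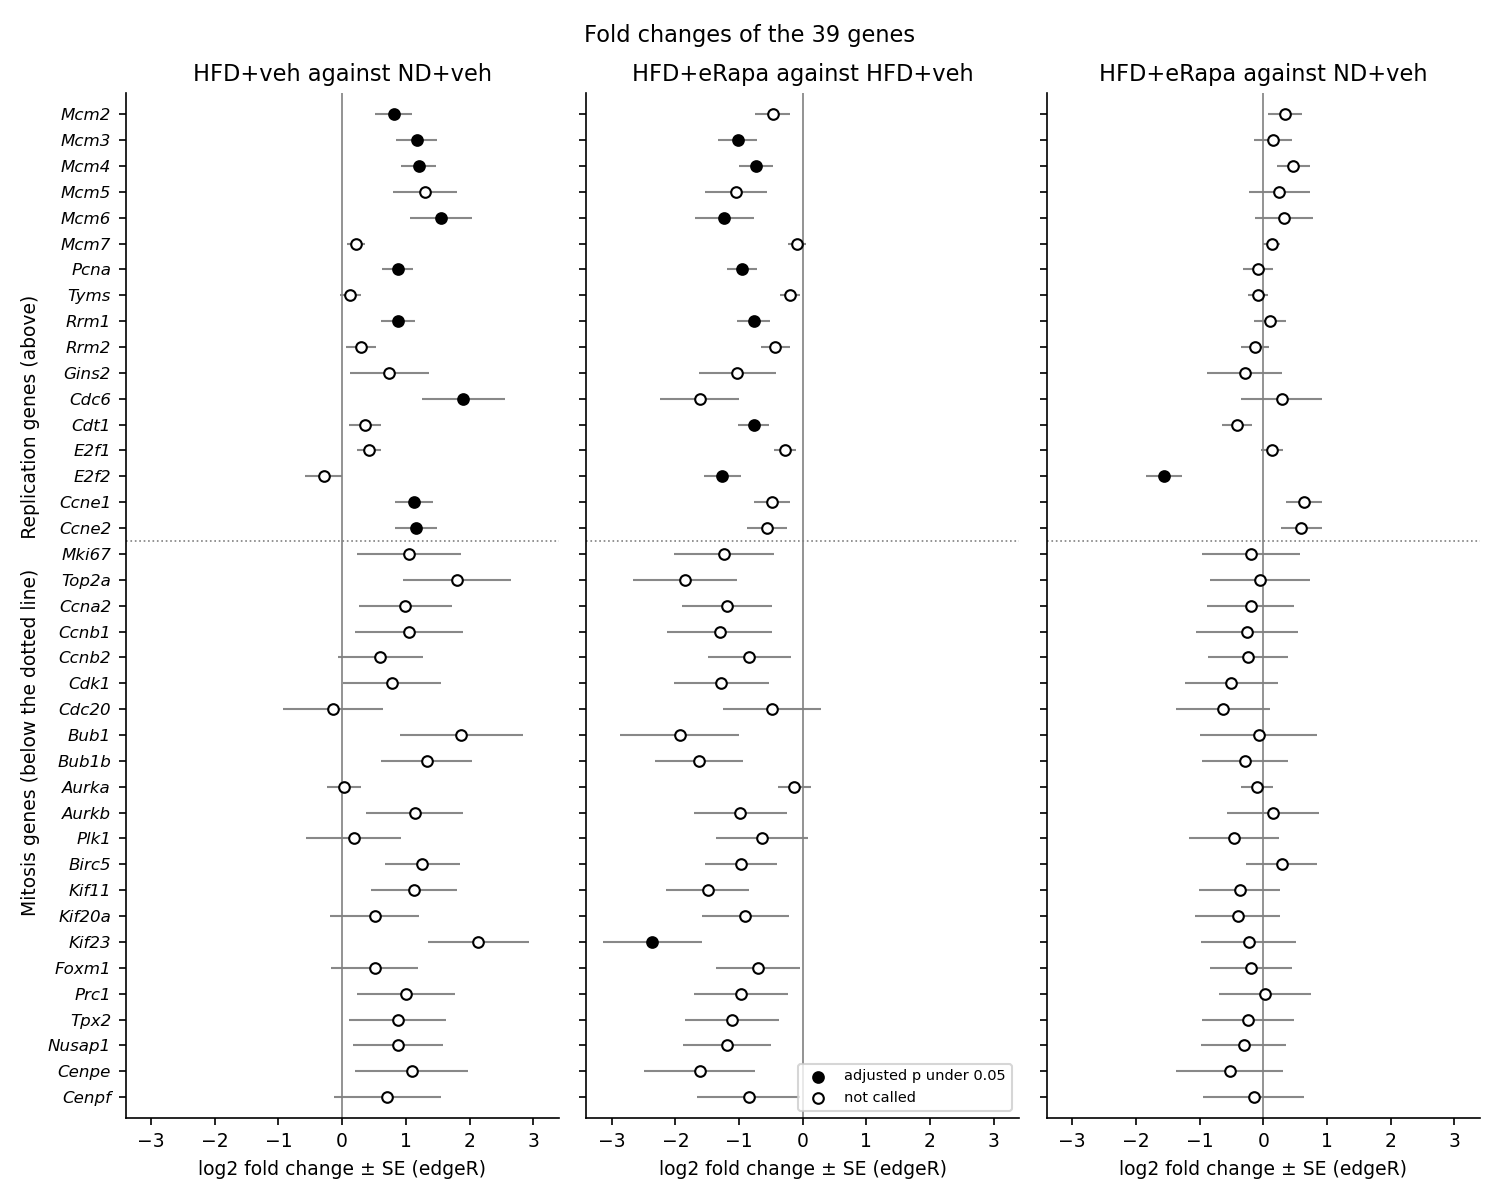
Log2 fold change ± SE of each of the 39 genes in 3 comparisons, with filled points for adjusted p under 0.05 and replication genes above the dotted line. In HFD + veh against ND + veh 9 replication genes are called and 0 mitosis genes, whose bars are wider (median SE 0.76 against 0.287).

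No mitosis gene was called in HFD + veh against ND + veh by edgeR (0 of 22), although the estimates of 21 were above 0. Their median log2 fold change was 0.99 with a median SE of 0.76, and 3 had an unadjusted p under 0.05. DESeq2 called 1 higher, and limma voom with sample quality weights, which gives deviating libraries less weight, called 17 higher. Of all genes DESeq2 called 2941 of 18071 higher and limma voom 2955 of 13847, where edgeR called 2218 of 13847 higher. The absence of calls therefore does not show equal levels. Mki67 (chr7:135689784-135716361), a marker of cycling cells, was at 0.420, 5.65 and 38.8 CPM in ND + veh and at 2.66, 23.2 and 71.9 CPM in HFD + veh, with a log2 fold change of 1.05 ± 0.812 (adjusted p = 0.348). Top2a (chr11:98992943-99024189) was at 0.341, 4.00 and 33.9 CPM in ND + veh and at 2.04, 15.1 and 110.6 CPM in HFD + veh, with 1.80 ± 0.848 (adjusted p = 0.116). For both genes 1 of the 7 HFD + veh animals, replicate 6, was above every ND + veh animal. Ccna2 (chr3:36564865-36572150), cyclin A, had medians of 2.39 and 6.74 CPM and a log2 fold change of 0.99 ± 0.729 (adjusted p = 0.324). Cdk1 (chr10:69335146-69352938) had medians of 2.36 and 6.25 CPM and a log2 fold change of 0.78 ± 0.768 (adjusted p = 0.47). Kif23, a kinesin of cytokinesis, came nearest to the threshold at 2.14 ± 0.794 (adjusted p = 0.0501). Among the others the estimates ran from 1.87 for Bub1 to -0.15 for Cdc20, with Aurka at 0.03 ± 0.271 (adjusted p = 0.945). Cyclin B, the partner of Cdk1, had 1.05 for Ccnb1 and 0.60 for Ccnb2. The kinases Bub1b, Aurkb and Plk1 had 1.33, 1.14 and 0.18, and Birc5, the survivin subunit of the Aurkb complex, had 1.26. Of the spindle proteins Kif11 had 1.13, Prc1 1.00, Nusap1 0.88, Tpx2 0.87 and Kif20a 0.51. The kinetochore proteins Cenpe and Cenpf had 1.09 and 0.71, and the transcription factor Foxm1 had 0.51.

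With rapamycin on the high fat diet 7 of 17 replication genes fell and 10 were not called, and without HFD + veh replicate 6 the number called was 2. In HFD + eRapa against HFD + veh 7 of 17 were called and all 7 were lower, where 21.1% of all genes were called lower, 10.9% higher and 32% in either direction. The median log2 fold change was -0.77, against -0.037 over all genes, and none of the 39 had groups without overlap, against 2.59% of all genes (1.29% higher and 1.29% lower). This comparison shares the HFD + veh animals with the one above, so the comparisons are not independent. Pcna fell to 21.1, 25.2 and 32.9 CPM (lowest, median, highest) in HFD + eRapa, a log2 fold change of -0.95 ± 0.238 (adjusted p = 0.00503). Of the helicase, Mcm6 fell by 1.23 ± 0.465 (adjusted p = 0.0460) to 3.90, 7.72 and 13.1 CPM. Mcm3 (chr1:20802968-20820312) was at 4.38, 9.81 and 25.1 CPM in HFD + veh and at 4.15, 5.96 and 7.73 CPM in HFD + eRapa. It fell by 1.02 ± 0.306 (adjusted p = 0.0135), and Mcm4 fell by 0.73 ± 0.263 (adjusted p = 0.0356). Mcm2 had a log2 fold change of -0.47 ± 0.278 (adjusted p = 0.204), Mcm5 of -1.05 (adjusted p = 0.102) and Mcm7 of -0.09 (adjusted p = 0.647). Rrm1 fell by 0.77 ± 0.259 (adjusted p = 0.0264), and the origin loader Cdt1, which was not called for the diet, fell by 0.77 ± 0.245 (adjusted p = 0.0192). Cdc6 had -1.62 ± 0.626 (adjusted p = 0.0506), which missed the threshold. The cyclin E genes, which had risen with the diet, had -0.48 for Ccne1 (adjusted p = 0.196) and -0.56 for Ccne2 (adjusted p = 0.189).

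E2f2 (chr4:136172394-136196057) was lower in HFD + eRapa than in either other group. It was at 1.36, 3.18 and 6.18 CPM in ND + veh, at 1.71, 2.78 and 3.66 CPM in HFD + veh and at 0.580, 1.02 and 1.84 CPM in HFD + eRapa. Of the 7 HFD + veh animals 6 were above every HFD + eRapa animal, and the overlap came from HFD + eRapa replicate 1 at 1.84 CPM and HFD + veh replicate 5 at 1.71 CPM. The log2 fold change was -1.26 ± 0.284 against HFD + veh (adjusted p = 0.00245) and -1.56 ± 0.277 against ND + veh (adjusted p = 0.000425), and -0.29 ± 0.287 for the diet alone (adjusted p = 0.465). In both rapamycin comparisons E2f2 was called in all 24 fits that left out 1 library. E2f1, a closely related activator, had -0.28 ± 0.178 against HFD + veh (adjusted p = 0.237) and 0.14 ± 0.173 against ND + veh (adjusted p = 0.677). Whether E2f1 and E2f2 differed from each other was not tested.

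**Figure D4:**
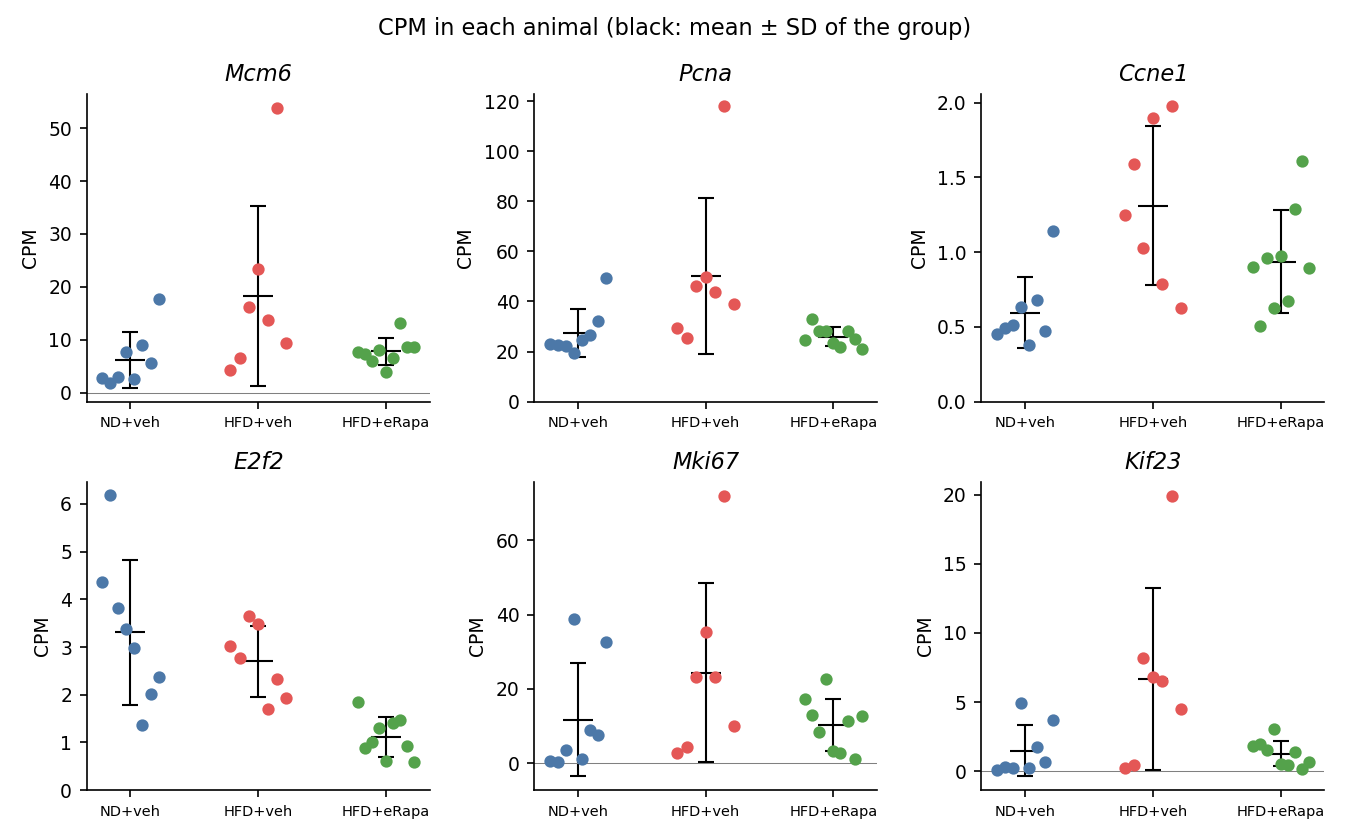
CPM of 6 genes in each animal, with a point per animal and the group mean ± SD in black. The HFD + eRapa animals lie between 0.580 and 1.84 CPM for E2f2, with 1 of them inside the range of HFD + veh, and HFD + veh replicate 6 is the highest point for Mcm6, Pcna, Ccne1, Mki67 and Kif23.

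Of the mitosis genes Kif23 (chr9:61915905-61946774) alone was called in HFD + eRapa against HFD + veh. It was at 0.261, 6.53 and 19.9 CPM in HFD + veh and at 0.186, 1.38 and 3.03 CPM in HFD + eRapa, and it fell by 2.36 ± 0.772 (adjusted p = 0.0225), with 5 of 7 HFD + veh animals above every HFD + eRapa animal. All 22 estimates were below 0, with a median log2 fold change of -1.15 and a median SE of 0.737. Mki67 stood at 1.24, 11.3 and 22.7 CPM in HFD + eRapa, with -1.24 ± 0.788 (adjusted p = 0.237). Top2a stood at 1.24, 7.25 and 15.9 CPM, with -1.85 ± 0.818 (adjusted p = 0.0864). Ccna2 had -1.19 ± 0.708 (adjusted p = 0.207), Cdk1 -1.28 ± 0.749 (adjusted p = 0.198) and Bub1b -1.63 ± 0.696 (adjusted p = 0.0760). The other 16 had estimates from -1.93 for Bub1 to -0.13 for Aurka.

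These calls too depended on single animals. Without HFD + veh replicate 6, where 14.6% of all genes were called lower, 2 of 17 replication genes were called, Pcna at -0.55 (adjusted p = 0.0265) and E2f2 at -1.27 (adjusted p = 0.00499), and 0 of 22 mitosis genes, with Kif23 at -1.73 (adjusted p = 0.104). Without it Mcm6 was at -0.62 (adjusted p = 0.3), Mcm3 at -0.66 (adjusted p = 0.083), Mcm4 at -0.33 (adjusted p = 0.247), Rrm1 at -0.22 (adjusted p = 0.29) and Cdt1 at -0.62 (adjusted p = 0.0634). Leaving out HFD + veh replicate 3 or 4 gave 4 replication calls each, all lower, where 2303 of 13914 and 2305 of 13888 genes were called lower. Pcna and E2f2 were called in all 24 fits that left out 1 library, Cdt1 in 21, Mcm4 in 17 and Mcm6 in 9. With the replicate number as a block 3 of the 17 were called, all lower. Of all 13847 genes 1459 were then called lower and 2532 in either direction.

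Between HFD + eRapa and ND + veh the call of E2f2 was the only one of the 39, where 6.54% of all genes were called lower, 6.93% higher and 13.5% in either direction. Groups without overlap were found in 0 of the 39, against 3.37% of all genes. The median log2 fold change was 0.14 for replication genes and -0.23 for mitosis genes, against -0.034 over all genes. Ccne1 at 0.64 ± 0.283 (adjusted p = 0.144) and Ccne2 at 0.60 ± 0.317 (adjusted p = 0.242) had the largest positive estimates. Pcna was at -0.08 ± 0.231 (adjusted p = 0.879) and Mcm2 at 0.34 (adjusted p = 0.475). None of the 22 mitosis genes had an unadjusted p under 0.05 in edgeR, and DESeq2 and limma voom called 0 of them. Of the 17 replication genes limma voom called 4, of which Mcm4, Ccne1 and Ccne2 were higher and E2f2 lower. Of all 13847 genes it called 1634 higher and 1539 lower. Mki67 was at -0.19 ± 0.765 (adjusted p = 0.916), Top2a at -0.05 ± 0.792 (adjusted p = 0.983), Ccna2 at -0.20 ± 0.689 (adjusted p = 0.901) and Cdk1 at -0.50 ± 0.728 (adjusted p = 0.731), and the errors exceed the estimates in all 4.

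Other genes of the pathway were counted in 4 lists. Of 41 further replication genes tested 13 rose and 0 fell in HFD + veh against ND + veh, with a median of 0.42, where 16% of all genes were called higher, and 4 rose without HFD + veh replicate 6, where 7.1% of all genes did. The largest rises were those of Pole2, a subunit of the leading strand polymerase, at 2.16 ± 0.593 (adjusted p = 0.0126) and Uhrf1, which recruits maintenance methylation to new DNA, at 1.85 ± 0.679 (adjusted p = 0.0475). Without replicate 6 they were at 1.40 (adjusted p = 0.0762) and 1.34 (adjusted p = 0.171). Against HFD + veh 14 of the 41 fell and 1 rose in HFD + eRapa, where 21.1% of all genes were called lower, and 3 fell and 1 rose without replicate 6, where 14.6% of all genes were called lower. Pole2 fell by 2.19 ± 0.573 (adjusted p = 0.00620) and Pola1, the catalytic subunit of polymerase alpha, by 1.37 ± 0.386 (adjusted p = 0.00949). Without replicate 6 they were at -1.44 (adjusted p = 0.0492) and -0.61 (adjusted p = 0.119). Mcm10, a replication initiation factor, rose instead, by 0.90 ± 0.284 (adjusted p = 0.0185), and also by 0.83 ± 0.272 against ND + veh (adjusted p = 0.0427). In that last comparison 7 of the 41 rose and 1 fell, where 6.93% of all genes were called higher, among them Gins1, of the helicase cofactor GINS, at 0.76 ± 0.190 (adjusted p = 0.00836) and Pold1, of polymerase delta, at -0.60 ± 0.2 (adjusted p = 0.0479).

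Of 42 further mitosis genes 3 rose with the diet, 5 fell in HFD + eRapa against HFD + veh and 1 rose against ND + veh. The first counts are smaller shares than the 16% called higher and 21.1% called lower of all genes, and without replicate 6 they were 0 and 0 in edgeR. The kinesins Kif15 and Kif18a rose with the diet by 2.58 ± 0.844 (adjusted p = 0.0288) and 1.44 ± 0.513 (adjusted p = 0.0412). Kif15 fell with rapamycin by 2.61 ± 0.816 (adjusted p = 0.0174) and Cit, the citron kinase of cytokinesis, by 2.38 ± 0.847 (adjusted p = 0.0350). Without replicate 6 Kif15 was at 1.65 (adjusted p = 0.153) and -1.68 (adjusted p = 0.117), Kif18a at 0.79 (adjusted p = 0.252) and Cit at -1.83 (adjusted p = 0.127). Cenpm, a centromere protein, was the gene that rose against ND + veh, at 2.27 ± 0.474 (adjusted p = 0.00201). In that comparison 6.93% of all genes were called higher, a larger share than 1 of 42.

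Among 25 genes of cyclin D, Rb and E2F control 4 rose and 2 fell with the diet, which is close to the shares of all genes (16% and 9.86%), and without replicate 6 0 rose and 1 fell. Rbl1, which encodes a pocket protein of the DREAM complex, rose by 1.33 ± 0.445 (adjusted p = 0.0312). Skp2, which targets the inhibitor Cdkn1b for degradation, rose by 0.95 ± 0.321 (adjusted p = 0.0330). E2f8, a repressive E2F, fell by 1.00 ± 0.371 (adjusted p = 0.0489) and Lin37, a MuvB subunit, by 0.45 ± 0.131 (adjusted p = 0.0173). Without replicate 6 Rbl1 was at 0.67 (adjusted p = 0.228), Skp2 at 0.53 (adjusted p = 0.19) and E2f8 at -1.10 (adjusted p = 0.0607). With rapamycin on the diet 3 of the 25 fell and 1 rose, a smaller share than the 21.1% of all genes called lower, and these 4 were called without replicate 6 too. Ccnd2, cyclin D, fell by 2.09 ± 0.561 (adjusted p = 0.00738) and Rbl1 by 1.82 ± 0.435 (adjusted p = 0.00368). E2f8 rose by 1.58 ± 0.369 (adjusted p = 0.00314), from a mean of 3.51 ± 0.940 CPM (SD, n = 7) to 10.6 ± 6.47 CPM (SD, n = 9), and its groups did not overlap. Against ND + veh 1 of the 25 was called, Lin37, at -0.43 ± 0.122 (adjusted p = 0.0192), where 6.54% of all genes were called lower. Of 6 Cdk inhibitor genes 1 was called in each comparison. Of all genes 16% were called higher for the diet, 21.1% lower with rapamycin on it and 6.54% lower against ND + veh. A single call among 6 genes does not set the inhibitors apart from these shares. Cdkn1c rose with the diet by 1.17 ± 0.340 (adjusted p = 0.0165) and fell by 1.32 ± 0.331 with rapamycin (adjusted p = 0.00501). Cdkn2b was lower in HFD + eRapa than in ND + veh by 1.84 ± 0.475 (adjusted p = 0.0102). The Cdkn1c calls were also made without replicate 6, at 1.23 (adjusted p = 0.0212) and -1.38 (adjusted p = 0.00689).

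Markers of several other liver cell types, among them macrophages and endothelial cells, were high in most animals with high mitosis sums. The 10 macrophage markers, led by Cd5l and Clec4f at means of 253 and 159 CPM, summed to 45.2 to 1250 CPM in ND + veh, 175 to 4680 in HFD + veh and 14.5 to 1030 in HFD + eRapa, and none was at 0 in any library. In HFD + veh against ND + veh 4 of the 10 rose, and in HFD + eRapa against HFD + veh 8 of the 10 fell, where 16% of all genes were called higher and 21.1% lower. Without HFD + veh replicate 6 the numbers were 0 and 6 of 10, against 7.1% and 14.6% of all genes, and the highest sum in HFD + veh was 3240 CPM. Of the 6 animals with the highest mitosis sums 5 were among the 6 with the highest macrophage sums, 5 among the 6 highest for endothelial markers, 5 for replication genes and 1 for hepatocyte markers. The sixth animal was ND + veh replicate 4, with 282 CPM of mitosis genes at 426 CPM of macrophage markers and the lowest hepatocyte marker sum of its group, 60100 CPM. HFD + veh replicate 6 had the highest sum of both, 516 and 4680 CPM. HFD + veh replicates 1 and 2, the lowest of their group in mitosis genes at 22.96 and 34.1 CPM, had 177 and 175 CPM of macrophage markers. HFD + eRapa replicate 9 had 80.6 CPM of mitosis genes at 55.1 CPM of macrophage markers. High values were not particular to macrophage and endothelial markers. In HFD + veh replicates 6, 4 and 3 and ND + veh replicate 8 stellate cell markers summed to 373, 493, 358 and 219 CPM. T and NK cell markers summed to 70.3, 15.6, 19.8 and 8.82 CPM in these animals.

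The remaining marker lists are read against the shares of all genes called. These were 16% higher and 9.86% lower for the diet, and 10.9% higher and 21.1% lower in HFD + eRapa against HFD + veh. In HFD + eRapa against ND + veh they were 6.93% higher and 6.54% lower. Without HFD + veh replicate 6 they were 7.1% higher for the diet and 14.6% lower with rapamycin on it. Of 8 endothelial markers, led by Stab2 and Kdr at means of 48.7 and 43.8 CPM, 2 rose with the diet and 8 fell with rapamycin on it, and their sums were 57.0 to 343, 90.9 to 611 and 48.1 to 276 CPM in ND + veh, HFD + veh and HFD + eRapa. Of 8 stellate cell markers, led by Dcn and Reln, 3 rose and 8 fell, and 4 were also lower in HFD + eRapa than in ND + veh, with sums of 26.4 to 219, 29.3 to 493 and 18.0 to 85.5 CPM. Of 6 listed cholangiocyte markers, led by Spp1 and Sox9, 3 were tested. Of these 3 rose and 1 fell, and 1 was higher for HFD + eRapa against ND + veh. Their sums were 4.92 to 20.4, 13.0 to 363 and 11.8 to 59.1 CPM. Spp1 alone reached 348 CPM, so the highest sum was mostly Spp1. Krt7, Krt19, Epcam and Cftr were near 0, at means of 0.103, 0.326, 0.41 and 0.063 CPM. Neutrophil markers, led by Csf3r and S100a9, reached 6.73, 47.7 and 12.1 CPM in the 3 groups. Of the 7 listed 3 were tested, and of these 2 rose with the diet and 2 fell with rapamycin. B and plasma cell markers, led by Jchain and Cd79b, reached 4.98, 51.5 and 6.93 CPM. Of the 7 listed 2 were tested, and both rose with the diet and fell with rapamycin. T and NK cell markers, led by Cd4 and Gzmb, reached 8.82, 70.3 and 4.33 CPM. Of the 10 listed 1 was tested, and it was not called. Markers this low can pass the filter on counts through the group where they are high, so these counts do not describe the whole lists. Erythroid markers, led by Alas2 and Hbb-bs, reached 74.5, 664 and 311 CPM, with 4 of 5 tested genes higher for the diet, 1 of 5 higher in HFD + eRapa against HFD + veh and 3 of 5 higher against ND + veh. Of 9 hepatocyte markers, led by Alb and Apoa1, Apoa1 fell with the diet by 0.68 ± 0.241 (adjusted p = 0.0411) and rose with rapamycin by 0.71 ± 0.236 (adjusted p = 0.0236), and sums were 60100 to 162000, 99800 to 171000 and 55500 to 151000 CPM. In HFD + veh the highest T and NK, B and plasma, neutrophil, endothelial and erythroid sums belonged to replicate 6, and without it they were 19.8, 20.4, 29.4, 536 and 165 CPM. Without it the numbers of genes that rose with the diet were 0 endothelial, 1 stellate, 3 cholangiocyte, 1 neutrophil, 0 B and plasma cell and 3 erythroid. The numbers that fell with rapamycin on it were then 2 endothelial, 8 stellate, 1 cholangiocyte, 1 neutrophil and 1 B and plasma cell. Apoa1 was at -0.57 (adjusted p = 0.0723) and 0.58 (adjusted p = 0.0468).

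**Figure D5:**
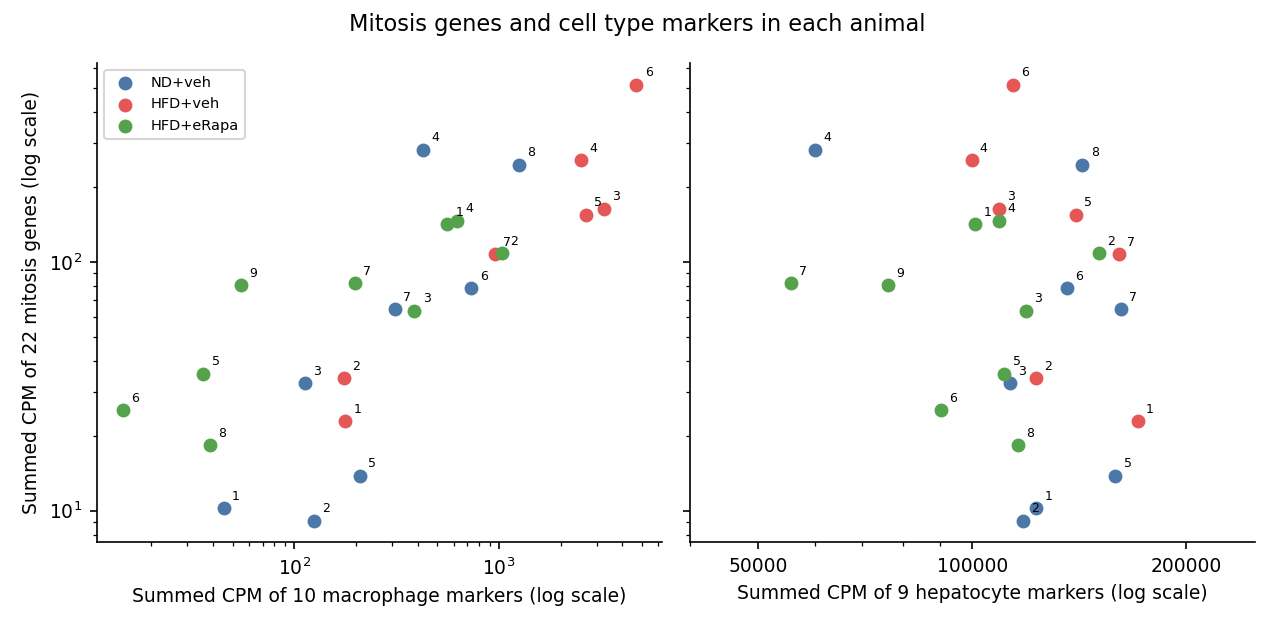
Summed CPM of the 22 mitosis genes (vertical, log scale) against summed CPM of 10 macrophage markers (left) and 9 hepatocyte markers (right), with a point for each animal numbered by replicate. Animals with more macrophage marker RNA mostly have more mitosis RNA, up to 4680 and 516 CPM in HFD + veh replicate 6, and ND + veh replicate 4 lies apart at 426 and 282 CPM.

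A score of 16 macrophage, T and NK, B and plasma cell and neutrophil markers was used as a covariate. With it most calls were lost in both comparisons with HFD + veh. Calls among all genes went from 3584 to 1225 for the diet and from 4432 to 972 for HFD + eRapa against HFD + veh. For HFD + eRapa against ND + veh they rose instead, from 1865 to 2738, with 2 of 17 replication genes called in place of 1. In HFD + veh against ND + veh 1 of 17 replication genes was called, Ccne1 at 1.05 (adjusted p = 0.0402), with a median of 0.35 over the set, and the estimates of 21 of 22 mitosis genes were below 0, with a median of -0.81 and 0 calls. In HFD + eRapa against HFD + veh E2f2 was called at -1.40 (adjusted p = 0.00795), the median of the replication genes was 0.03, and all 22 mitosis estimates were above 0 with a median of 1.22 and 0 calls. The score was higher in 4 of the 7 HFD + veh animals than in any ND + veh animal and in 5 than in any HFD + eRapa animal, so the score and the groups cannot be fully told apart, and the part of these cells in the results was not tested.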

How the data were processed

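Hepatocyte polyA RNA of 24 mice was sequenced. The authors aligned reads with STAR in 2-pass mode to mm10 with Gencode M23, handled alignments with SAMtools 1.1.0, and deposited raw gene counts from HTSeq 0.11.2, with no strand setting given in the sources used here. The authors also deposited FPKM values from Cufflinks, that is, fragments scaled by transcript length and library size. Groups were taken from the labels, which number the animals, give 1 batch and state no litter or day, so p-values measure the spread between these samples. The 39 genes and all lists were chosen with earlier results of these data known, and the fit of the other lists without HFD + veh replicate 6 was added after seeing the data.

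Counts were tested with edgeR 4.0.16 in R 4.3.3 (filterByExpr, TMM, robust quasi-likelihood, 24 libraries in 1 fit of 3 groups) with Benjamini-Hochberg adjustment over the 13847 genes tested. SE was derived from the fold change and its F statistic, as their log2 value over the root of F. CPM used effective library sizes, and log2 CPM a prior count of 2. FPKM alternatives used pseudocounts of 1 and 0.1. DESeq2 1.42.0 and limma 3.58.1 were alternatives, and the scripts were tested on simulated data. Totals of 17.7 to 25.9 M counts set the precision. A count of 0 allows up to 3 counts, and floors cover counting error only. Gene positions are from Gencode M21 (GRCm38), whose IDs and versions match all 39 genes, and promoters from RefSeq. Named in full were Mki67, Top2a, Ccna2, Cdk1, Mcm2, Pcna and Ccne1, and in each comparison and set the 3 called genes of largest absolute log2 fold change. From the other pathway lists up to 2 called genes of largest rise and 2 of largest fall were named, and from marker lists the 2 of highest mean CPM. Apoa1, E2f1, Mcm7 and the other members were named to account for the lists.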

Additional observations from a re-analysis of the deposited data

Results flagged for a closer look

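In 6 of 126 groups of values 1 animal lay far from the others of its group by Dixon's test, where chance gives about 1 in 20 groups. On the log2 CPM scale Rrm1 was at 6.18 in HFD + veh replicate 6, with the next animal at 4.37, and Ccne2 was at 3.25 in that animal, with the next at 1.80. Rrm1 was at 4.5 in ND + veh replicate 8, with the next animal at 3.88, and the log2 of the summed replication CPM was 7.66 there, with the next at 6.86. Mcm7 was at 3.73 in HFD + eRapa replicate 2, the lowest of its group, with the next at 4.02. The total count of HFD + veh replicate 3 was 19.85 M, the lowest of its group, with the next at 21.26 M.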

How the results depend on the processing

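Counts of calls are given for HFD + veh against ND + veh, HFD + eRapa against HFD + veh and HFD + eRapa against ND + veh, in that order. Replication genes (9, 7 and 1 in the report) gave 9, 7 and 1 with DESeq2, 9, 8 and 1 with its size factors, 12, 8 and 4 with limma voom and sample quality weights, 6, 5 and 1 with no filter, 7, 7 and 1 with at least 10 counts in every library, 3, 6 and 1 with only the groups compared, 4, 3 and 1 on log2(FPKM + 1), 5, 3 and 1 on log2(FPKM + 0.1), 6, 3 and 1 where a log2 change of 1 or more in size was also required, 1, 1 and 2 with the immune score, and 2, 2 and 2 without ND + veh replicate 4 and HFD + veh replicate 6, a choice made after seeing the data. Mitosis genes (0, 1 and 0) gave 1, 2 and 0 with DESeq2, 17, 4 and 0 with voom, 1, 1 and 0 with DESeq2 size factors, 1, 1 and 0 on log2(FPKM + 1), and 0, 0 and 0 on log2(FPKM + 0.1), with no filter, with at least 10 counts, with the immune score and without both libraries. All genes (3584, 4432 and 1865) gave 2333, 3593 and 2344 with only the groups compared, 1225, 972 and 2738 with the immune score, 2341, 3300 and 1529 on log2(FPKM + 0.1), 2300, 3352 and 2050 without both libraries, 1585, 2284 and 711 at the fold limit, 2657, 2809 and 1509 with at least 10 counts and 4890, 5672 and 3173 with voom. Leaving out 1 library gave 2 to 11, 2 to 8 and 1 to 2 replication genes, 0 to 3, 0 to 3 and 0 to 0 mitosis genes and 2106 to 4479, 3269 to 5061 and 1462 to 2232 genes in all. With at least 1 count in every library in place of 10, 36 members rather than 17 counted as detected. The causes were not tested.

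The labels state no pairing of animals by replicate number, and the main fit used none. The mean correlation of same-numbered deviations was 0.316, -0.245 and -0.203, with 5 of 7, 2 of 7 and 2 of 8 pairs over 0.1. In the first comparison it ran from -0.36 to 0.726. Of the animals 2, 0 and 0 correlated best with their own number, and whether the numbers carry a meaning was not tested. With the replicate block 10, 3 and 1 replication genes, 0, 0 and 0 mitosis genes and 2461, 2532 and 1575 genes in all were called. In HFD + eRapa against ND + veh the block turned Mki67 to 1.02, Top2a to 1.34, Ccna2 to 0.87, Cdk1 to 0.84 and Pcna to 0.02.

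Among the single genes 48 of the values computed under another setting turned direction, and of these genes Mcm6 and Kif23 had been called in that comparison. With the immune score Mki67, Top2a, Ccna2 and Cdk1 were at -0.76, -0.25, -0.72 and -0.95 for the diet and at 1.33, 1.12, 1.2 and 1.25 for HFD + eRapa against HFD + veh, where Mcm2 was at 0.13, Mcm6 at 0.29 and Kif23 at 0.56. In HFD + eRapa against ND + veh Mki67, Top2a, Ccna2 and Cdk1 were at 1.00, 1.04, 0.86 and 0.59 with voom and at 0.57, 0.87, 0.48 and 0.30 with the immune score, where Pcna was at 0.02. On log2(FPKM + 1) Top2a was at 0.10, Ccna2 at 0.01, Cdk1 at 0.21 and Mcm2 at -0.06, and on log2(FPKM + 0.1) Mki67 was at 0.32, Top2a at 0.46, Ccna2 at 0.30, Cdk1 at 0.49 and Mcm2 at -0.03. Without both libraries Mki67, Top2a and Ccna2 were at 0.43, 0.16 and 0.39. Without ND + veh replicate 4 they were at 0.39, 0.13 and 0.36, and without replicate 8 at 0.22, 0.84 and 0.17, with Cdk1 at 0.23 and Pcna at 0.09. Without HFD + eRapa replicates 5, 6 or 8 Top2a was at 0.07, 0.07 and 0.09. The lowest values with 1 library left out were -0.42 for Mki67, -0.4 for Ccna2, -0.69 for Cdk1 and -0.15 for Pcna.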
